A study of Mus musculus with 12 samples.

Results

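Nuclear receptor genes were compared over 4 groups of mouse small-intestinal epithelium, embryonic and adult, in RNA-seq gene counts. The set holds 32 genes of 23366 gene entries, taken by name from the nuclear receptor superfamily, and it leaves out the Hnf4 genes, Vdr and some further receptors. Each group had 3 libraries labelled as biological replicates. E12.5 and E14.5 were epithelial cells from embryos of those days of gestation, sorted as living cells positive for EpCAM, a surface protein of epithelia, and negative for the endothelial protein CD31 and the leukocyte protein CD45. ISC were adult crypt cells with high Lgr5-EGFP fluorescence, a reporter in which the promoter of the stem cell gene Lgr5 drives EGFP and a tamoxifen-inducible Cre. AE were adult villus cells labelled enterocytes and sorted with the EpCAM, CD31 and CD45 gate described above, which alone does not separate enterocytes from other villus epithelial cells. Both adult groups came from Lgr5EGFP-Cre-ERT males aged 2 months, and the strain label was mixed C57BL/6 CD1 for all 4 groups. ISC and AE are thus adult cell groups of the same age, and their order here is not one of time. Between embryonic and adult groups, age and cell type differ together and cannot be told apart. An E12.5 library was made from a pool of 20 embryos and an adult library from 1 gut, while the size of the E14.5 pools was not given in the sources used here. The age labels of the 6 embryonic libraries contradict their titles, each naming the opposite stage, and the stage is taken from the title here. The direction of E14.5 against E12.5 rests on that choice, as does the stage named in each comparison of an adult with an embryonic group. The direction of the latter rests on it only where the embryonic groups lie on opposite sides of the adult group.

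Nuclear receptors are transcription factors, most of which change activity when a small lipid-soluble ligand such as a steroid, thyroid hormone, retinoic acid, an oxysterol or a fatty acid enters their ligand-binding domain. Many bind DNA as a heterodimer with a retinoid X receptor on repeats of a short recognition sequence, and they exchange corepressors for coactivators when ligand binds. Receptors with no established ligand are called orphans. In the small intestine this family is known for its part in the handling of dietary lipids, bile acids, vitamins and foreign chemicals.

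Libraries held between 12587626 and 45190749 gene counts. Levels are counts per 1000000 gene counts (CPM) after scaling by the trimmed mean of M values, given as the mean ± SD of 3 libraries, and changes are log2 fold changes ± SE from edgeR quasi-likelihood tests fitted on all 12 libraries, with Benjamini-Hochberg adjustment over the 15342 genes that passed the edgeR filter on low counts. A gene is called when its adjusted p is under 0.05. The summed level of 12 crypt base stem cell markers was 11571 to 12761 CPM in ISC and 1285 to 1598 CPM in AE, and all 12 were called lower in AE. The summed level of 15 enterocyte markers was 98639 and 101763 CPM in AE replicates 2 and 3 and 44772 CPM in AE replicate 1, against 3102 to 4429 CPM in ISC. AE replicate 1 therefore stood apart from its group, and calls that it decides are given beside the genes. The summed level of 17 goblet, Paneth and tuft markers was 19644 to 30386 CPM in AE and 3377 to 5316 CPM in ISC, and 9 of the 15 tested were called higher and 2 lower in AE. That of 13 enteroendocrine markers was 1678 to 2400.0 CPM in AE and 130.2 to 199.8 CPM in ISC, and 11 were called higher and 1 lower. The part of these cells in the receptor levels was not tested. In bulk RNA, fewer cells of a type and less RNA per cell cannot be told apart. Reads aligned to several places were listed in E12.5 and ISC and listed at 0 in E14.5 and AE. The comparisons E14.5 against E12.5, ISC against E14.5 and AE against ISC cross that split, and its part in the results was not tested. AE against E14.5 and ISC against E12.5 do not cross it and are given as well.

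Of the 32 genes, 29 passed the filter. The other 3 were Rxrg, Esrrb and Nr2f1, with 33, 13 and 20 counts over the 12 libraries. A joint test of all groups called 28 of the 29 tested genes, against 93.3% of all genes tested. The exception was Nr2f6 (adjusted p = 0.138). In the embryonic step, E14.5 against E12.5, 18 of 29 were called, 11 higher and 7 lower, where 49.2% of all genes were called, 23.6% higher and 25.6% lower. Between ISC and E14.5 the count was 22, with 19 higher and 3 lower in ISC, where 60.7% of all genes were called, 30.2% higher and 30.6% lower. The median change of the 29 was 0.86 on the log2 scale in that comparison, beside −0.00 for all genes. It was 0.03 in E14.5 against E12.5 and 0.11 in AE against ISC, beside −0.02 and −0.05 for all genes. Between AE and ISC, 19 were called, 11 higher and 8 lower, where 67.8% of all genes were called, 32.6% higher and 35.2% lower, and without AE replicate 1 the count was 21.

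A called change of at least 1 on the log2 scale was found for 10 genes in E14.5 against E12.5 (22.5% of all genes), 17 in ISC against E14.5 (33.2%) and 14 in AE against ISC (40.7%). The 3 libraries of a group did not overlap those of the other for 22 of the 29 genes in E14.5 against E12.5, where 70.6% of all genes did not overlap. The same held for 24 genes in ISC against E14.5 (72.0% of all genes) and 18 in AE against ISC (66.3%).

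The highest group mean was AE for 14 of the 29 genes, E12.5 for 8, ISC for 6 and E14.5 for 1, beside 33.9%, 31.7%, 19.5% and 14.9% of all genes tested. The means of 9 genes rose in order over E12.5, E14.5, ISC and AE (14.8% of all genes): Thrb, Ppard, Nr1h3, Nr1i2, Nr1i3, Nr3c1, Nr3c2, Nr1d1 and Esrra. Not every neighbouring pair in these orders differed beyond its error, as given gene by gene below. Only Nr2f2 had means that fell in order (15.4% of all genes).

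**Figure D1:**
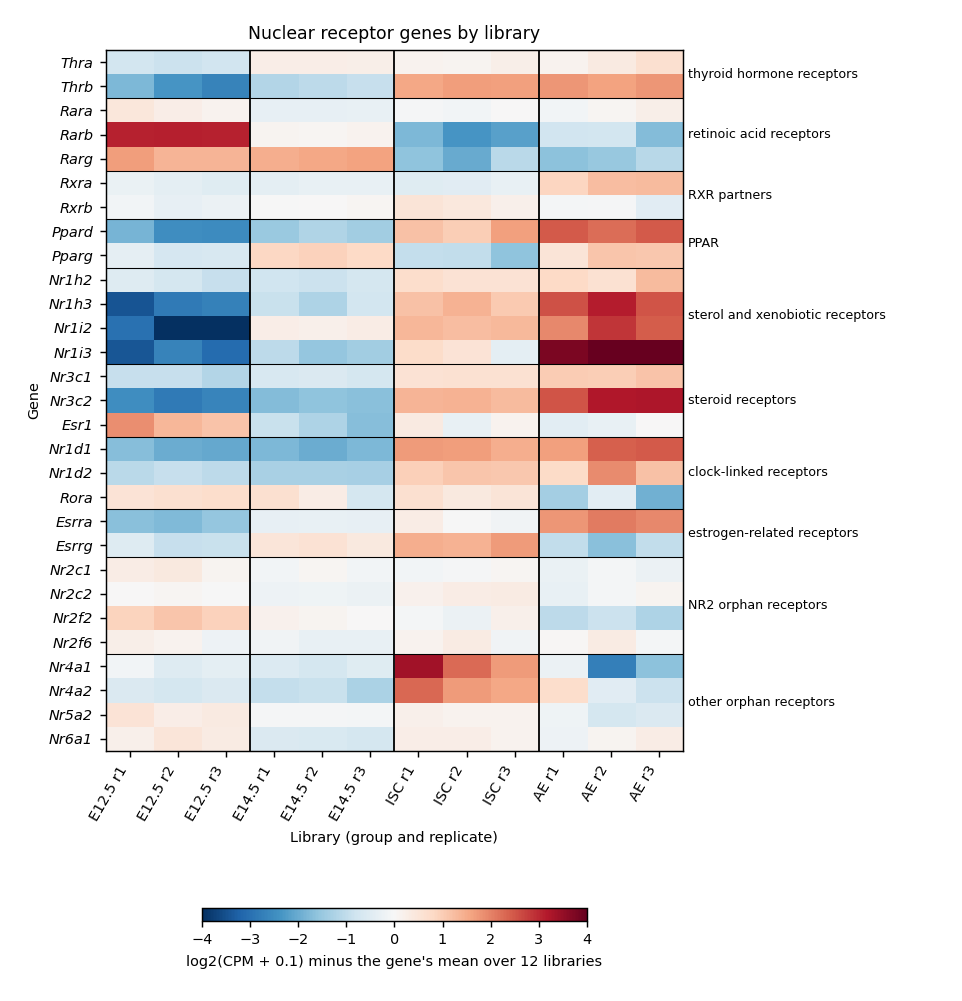
Colour gives log2(CPM + 0.1) of each of the 29 tested nuclear receptor genes (rows, grouped by role) in each of the 12 libraries (columns, r1 to r3 being the replicates) minus that gene's mean over the 12 libraries, with colours ending at −4 and 4. Rarb is highest in the 3 E12.5 libraries, Nr1i3 in the 3 AE libraries, and Nr4a1 in the 3 ISC libraries.

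Retinoic acid receptors bind the vitamin A product retinoic acid, and Rarb, which encodes receptor beta, is itself a known retinoic acid target through a direct repeat in its promoter. In the 250 bases before the RefSeq start of Rarb, chr14:16575477-16575726 on the minus strand of GRCm38.p6, a repeat of the form GTTCANNNNNAGTTCA lies at positions −52 to −37 from the start. The promoter is shown because this gene had the largest called fall in the embryonic step among the genes of the set above 1 CPM; the capitals mark the repeat.
Rarb: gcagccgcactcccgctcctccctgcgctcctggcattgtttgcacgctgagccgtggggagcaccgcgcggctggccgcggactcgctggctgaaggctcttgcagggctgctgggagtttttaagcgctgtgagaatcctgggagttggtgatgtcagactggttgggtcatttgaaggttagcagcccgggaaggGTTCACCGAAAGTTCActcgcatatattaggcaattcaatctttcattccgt
The form searched was set to this known repeat, so its match in Rarb was fixed in advance. Searched on both strands, it occurred in 9 of 32851 promoter windows of this length (0.0274%). Of the 49 windows that 30 of the nuclear receptor genes have, this 1 alone held it. The match describes the sequence and is no evidence of binding in these cells.

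Rarb was at 34.5, 35.4 and 34.9 CPM in the E12.5 libraries and at 4.36, 4.27 and 4.44 CPM in the E14.5 libraries. It stood at 1.08, 0.71 and 0.83 CPM in ISC and at 2.31, 2.37 and 1.14 CPM in AE. The E12.5 libraries thus stood far above all others, and neighbouring groups did not overlap. Rarb fell by 3.00 ± 0.18 on the log2 scale from E12.5 to E14.5 (adjusted p = 2.74e-08) and by 2.33 ± 0.22 from E14.5 to ISC (adjusted p = 6.36e-07), and rose by 1.24 ± 0.25 from ISC to AE (adjusted p = 0.000584). Between ISC and E12.5, within the same listing of multiply aligned reads, the change was −5.33 ± 0.22 (adjusted p = 4.96e-11). In the GENCODE vM21 annotation 38.4% of Rarb exon bases overlap genes on the opposite strand, mainly Top2b. The strand setting of the counting is not given in the sources used here. Reads from the overlap may have been set aside as ambiguous or counted for the other gene, and which of these held was not tested. Top2b had 499 ± 40.4 CPM in E12.5 and 455 ± 25.8 CPM in E14.5, and its change in that step was −0.13 (adjusted p = 0.496).

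Rarg, which encodes receptor gamma, parted from Rarb in the embryo. Its levels were 7.60, 6.04 and 6.09 CPM in E12.5 and 6.43, 6.91 and 7.21 CPM in E14.5. They were 0.70, 0.49 and 1.04 CPM in ISC and 0.67, 0.74 and 1.03 CPM in AE. All 6 embryonic libraries were above all 6 adult ones, and the groups overlapped within the embryo and within the adult. The change was −3.16 ± 0.26 between ISC and E14.5 (adjusted p = 1.04e-07), −3.11 ± 0.26 between ISC and E12.5 (adjusted p = 8.64e-08) and −3.15 ± 0.27 between AE and E14.5 (adjusted p = 8.58e-08). Rara, which encodes receptor alpha, was the most abundant of the 3 in every group. It had 93.0 ± 10.6 CPM (E12.5), 60.8 ± 1.10 CPM (E14.5), 73.4 ± 3.54 CPM (ISC) and 79.5 ± 9.33 CPM (AE), and fell by 0.61 ± 0.11 in the embryonic step (adjusted p = 0.000455). Its call as higher in ISC than in E14.5 (0.27 ± 0.11, adjusted p = 0.0478) was lost in 15 of 19 alternative settings. Per kilobase of merged exon, Rara was at 21.3, Rarb at 6.63 and Rarg at 1.54 CPM in E12.5, and at 18.2, 0.37 and 0.19 CPM in AE.

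Mesenchyme genes also differed between these groups. The summed level of 23 mesenchyme and smooth muscle markers was 1661 to 1889 CPM in E12.5, with Fn1 at 1568 CPM and Vim at 160 CPM. It was 612 to 748 CPM in E14.5, 12.04 to 12.58 CPM in ISC, where 7 of the 23 were at 0, and 17.5 to 19.6 CPM in AE, where only Twist2 was at 0. From E12.5 to E14.5, 19 of the 21 tested markers were called higher and 2 lower, and from E14.5 to ISC 20 were called lower. The part of such cells in the receptor levels was not tested.

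The retinoid X receptors, the shared heterodimer partners, differed from each other in the adult step. Rxra had 91.4 ± 7.87 CPM in E12.5, 94.9 ± 3.61 in E14.5 and 89.3 ± 6.55 in ISC, and these groups overlapped. Its AE libraries were at 213, 278 and 288 CPM, all above every other library. Rxra rose by 1.54 ± 0.12 from ISC to AE (adjusted p = 8.69e-08), and AE was 1.45 ± 0.12 above E14.5 (adjusted p = 7.27e-08). Rxrb went the other way, with 28.3 ± 3.15 CPM in ISC and 19.1 ± 2.96 CPM in AE (−0.56 ± 0.14, adjusted p = 0.00238). Its higher level in ISC than in E14.5 (22.2 ± 0.74 CPM) was called at 0.35 ± 0.13 (adjusted p = 0.0346) and lost in 9 of 19 alternatives. Rxrg had 26 counts over the 3 E12.5 libraries, 7 over the 3 E14.5 libraries and 0 over all 6 adult libraries. Taking 3 counts over the group (0.0525 CPM) as the limit for ISC, its mean E12.5 level was 5.71-fold that limit. This leaves out the spread in E12.5, where replicates 1, 2 and 3 had 15, 2 and 9 counts. Rxrg was not tested.

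Thyroid hormone receptors bind triiodothyronine, and in vertebrates the hormone is known for its part in the remodelling of the gut, best described in amphibians. The genes of the alpha and beta receptors rose at different steps. Thra was at 52.4 ± 2.72 CPM in E12.5 and 107 ± 1.42 CPM in E14.5, a rise of 1.04 ± 0.12 (adjusted p = 7.53e-06), and then at 101 ± 4.33 CPM in ISC and 118 ± 20.6 CPM in AE, with no call in either later step. Without AE replicate 1 the AE against ISC difference of Thra was called (0.34, adjusted p = 0.0066), as was that between AE and E14.5 (0.25, adjusted p = 0.0298). Thrb was at 9.82, 6.57 and 5.25 CPM in E12.5 and at 15.0, 16.5 and 18.02 CPM in E14.5. It was at 99.6, 108 and 105 CPM in ISC and at 117, 105 and 115 CPM in AE. The adult libraries stood far above the embryonic ones, and ISC and AE overlapped. Thrb rose by 1.18 ± 0.17 in the embryonic step (adjusted p = 8.39e-05) and by 2.66 ± 0.17 from E14.5 to ISC (adjusted p = 1.07e-08), and ISC was 3.85 ± 0.19 above E12.5 (adjusted p = 2.55e-10). Per kilobase of exon, Thra was at 11.3 CPM and Thrb at 0.97 CPM in E12.5, and at 25.6 and 15.2 CPM in AE. Of Thra exon bases 5.70% overlap Nr1d1 on the opposite strand.

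Of 10 tested genes of thyroid hormone response and metabolism, 3 were called higher and 4 lower in E14.5 than in E12.5, 6 higher and 3 lower in ISC than in E14.5, and 4 higher and 5 lower in AE than in ISC. Dio3, which encodes the deiodinase that inactivates thyroid hormone, fell from 5.70 ± 1.67 CPM in E12.5 to 0.13 ± 0.04 CPM in E14.5 (adjusted p = 8.15e-07). Dio1, which encodes a deiodinase that can activate it, rose from 0.08 ± 0.05 CPM in E14.5 to 7.94 ± 1.14 CPM in ISC (adjusted p = 1.54e-08). Hr, a corepressor gene known to respond to thyroid hormone in the brain, rose from 0.33 ± 0.11 to 26.1 ± 0.74 CPM in the same comparison (adjusted p = 1.96e-11).

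**Figure D2:**
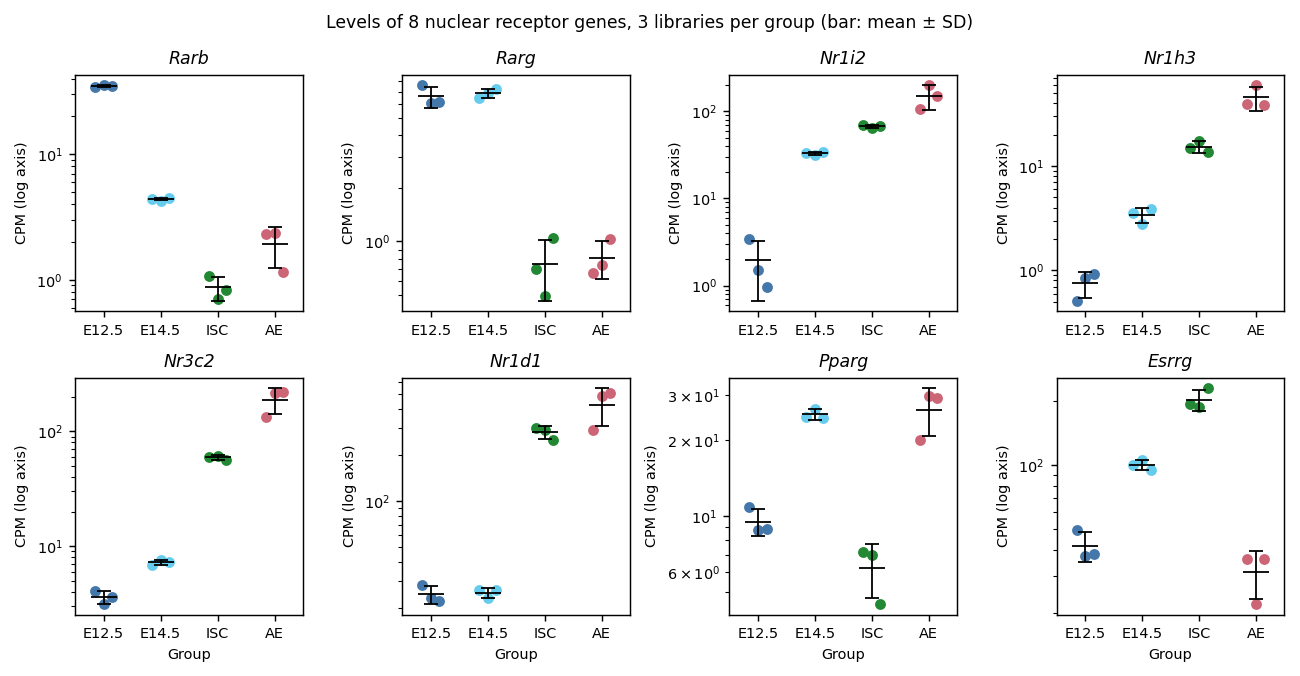
Levels of 8 nuclear receptor genes in CPM on log axes in the 4 groups, with a point for each of 3 libraries and bars for the mean ± SD. The means of Nr1i2, Nr1h3 and Nr3c2 rise in the order E12.5, E14.5, ISC and AE. Rarb and Rarg are lower in the adult than in the embryonic libraries, and Pparg and Esrrg change direction between neighbouring groups.

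Peroxisome proliferator-activated receptors bind fatty acids and their derivatives, and the genes of the delta and gamma receptors took different courses. Ppard was at 10.6 ± 2.88 CPM in E12.5 and 19.7 ± 1.84 CPM in E14.5. It was at 114, 100.2 and 159 CPM in ISC and at 281, 237 and 280.2 CPM in AE. No neighbouring groups overlapped. Ppard rose at each step, by 0.90 ± 0.19 (adjusted p = 0.00173), 2.66 ± 0.20 (adjusted p = 4.04e-08) and 1.10 ± 0.18 (adjusted p = 0.000113). Pparg was at 10.8, 8.75 and 8.84 CPM in E12.5, 24.6, 26.6 and 24.4 CPM in E14.5, 7.16, 6.97 and 4.48 CPM in ISC and 19.9, 29.9 and 29.2 CPM in AE. Its E14.5 and AE libraries overlapped, and both groups stood above the ISC and E12.5 libraries. Pparg rose by 1.41 ± 0.19 in the embryonic step (adjusted p = 3.81e-05), changed by −2.03 ± 0.20 from E14.5 to ISC (adjusted p = 8.13e-07), and rose by 2.09 ± 0.20 from ISC to AE (adjusted p = 6.04e-07). The difference between AE and E14.5 was 0.05 ± 0.19 (adjusted p = 0.801). Per kilobase of exon, Ppard was at 16.6 and Pparg at 2.10 CPM in ISC.

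Of 19 tested target genes of these receptors, 12 were called higher and 1 lower in E14.5 than in E12.5, 12 higher and 3 lower in ISC than in E14.5, and 14 higher and 2 lower in AE than in ISC, with list medians of 1.07, 1.58 and 1.16 on the log2 scale beside −0.02, −0.00 and −0.05 for all genes. Fabp1, which encodes a fatty acid binding protein, rose from 25.7 ± 15.2 CPM in ISC to 2745 ± 1292 CPM in AE (adjusted p = 3.43e-08). Pdk4, whose product restrains the use of pyruvate, rose from 0.59 ± 0.10 CPM in E14.5 to 69.9 ± 35.9 CPM in ISC (adjusted p = 1.17e-08). Within AE the list was also high where enterocyte markers were high. Its summed level was 8596 CPM in AE replicate 1, in which those markers were lowest, and 17932 and 23280 CPM in the other AE libraries. Fabp2, which is also among the enterocyte markers, had the highest mean level of this list in AE. Genes on both lists were not taken out of the sums, so these sums are not independent. The part of such genes in the match was not tested.

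Nr1h3 and Nr1h2 encode the liver X receptors alpha and beta, which sense oxysterols. Nr1i2 encodes the pregnane X receptor and Nr1i3 the constitutive androstane receptor, both of which induce enzymes that break down foreign chemicals. All 4 were called higher in ISC than in E14.5 and higher in AE than in E14.5, and Nr1h3, Nr1i2 and Nr1i3 were also called higher in E14.5 than in E12.5 and in AE than in ISC. Nr1h2 was not called in E14.5 against E12.5 (−0.08, adjusted p = 0.678).

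Nr1i2 was at 3.40, 1.51 and 0.95 CPM in the E12.5 libraries and at 33.1, 31.8 and 33.9 CPM in the E14.5 libraries. It was at 69.2, 64.9 and 67.6 CPM in ISC and at 105, 199 and 149 CPM in AE. No neighbouring groups overlapped, and E12.5 replicate 1 was the highest of its group. Nr1i2 rose by 4.04 ± 0.33 in the embryonic step (adjusted p = 4.25e-07), by 1.03 ± 0.27 from E14.5 to ISC (adjusted p = 0.00453) and by 1.17 ± 0.27 from ISC to AE (adjusted p = 0.00152). Without E12.5 replicate 1 the embryonic rise was 4.76. Nr1h3 was at 0.51, 0.84 and 0.92 CPM in E12.5, 3.51, 2.77 and 3.91 CPM in E14.5, 15.0, 17.4 and 13.6 CPM in ISC and 39.4, 59.3 and 38.1 CPM in AE. The groups formed 4 separate steps. Nr1h3 rose by 2.16 ± 0.27 (adjusted p = 1.95e-05), 2.19 ± 0.22 (adjusted p = 8.29e-07) and 1.57 ± 0.20 (adjusted p = 8.89e-06). Nr1h2 was at 24.7 ± 3.52 CPM in E12.5 and 23.3 ± 1.26 CPM in E14.5, with overlap, and rose to 62.0 ± 3.07 CPM in ISC (1.41 ± 0.15, adjusted p = 2.56e-06). Its AE level was 75.7 ± 18.2 CPM and was not called against ISC (adjusted p = 0.112). Per kilobase of exon, Nr1h2 was at 7.36 and Nr1h3 at 0.30 CPM in E12.5, against 22.6 and 18.1 CPM in AE.

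Nr1i3 was at 0.35, 0.67 and 0.48 CPM in E12.5 and at 2.24, 1.54 and 1.76 CPM in E14.5. It was at 7.98, 7.03 and 3.57 CPM in ISC and at 66.2, 79.2 and 104 CPM in AE. No neighbouring groups overlapped, and the lowest AE library was above every other library. Nr1i3 rose by 1.92 ± 0.38 (adjusted p = 0.000911), 1.73 ± 0.29 (adjusted p = 0.000134) and 3.76 ± 0.27 (adjusted p = 3.75e-08), and AE was 5.49 ± 0.30 above E14.5 (adjusted p = 7.86e-10). Of its exon bases 74.9% overlap Tomm40l on the opposite strand, so its level is uncertain where the counting did not use strand. Tomm40l itself had 7.04 ± 0.68 CPM (E12.5), 16.3 ± 0.85 CPM (E14.5), 16.0 ± 3.52 CPM (ISC) and 53.6 ± 5.69 CPM (AE). It rose by 1.75 from ISC to AE (adjusted p = 3.36e-07) and changed by −0.03 from E14.5 to ISC (adjusted p = 0.863).

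Of 18 tested targets of the pregnane X and constitutive androstane receptors, 10 were called higher and 1 lower in E14.5 than in E12.5, 10 higher and 3 lower in ISC than in E14.5, and 16 higher and 1 lower in AE than in ISC, with a list median of 3.74 in the last beside −0.05 for all genes. Abcc2, which encodes an export pump of conjugated compounds, rose from 5.06 ± 2.13 CPM in E12.5 to 66.6 ± 2.77 CPM in E14.5 (adjusted p = 1.16e-06). Cyp3a11, a main drug-metabolising cytochrome of the mouse, rose from 4.84 ± 3.86 CPM in ISC to 602 ± 376 CPM in AE (adjusted p = 1.17e-05). Cyp2b10, a classic target of Nr1i3 in the liver, rose from 3.82 ± 1.47 to 429 ± 317 CPM (adjusted p = 4.03e-06). The summed level of the list was 3905 CPM in AE replicate 1 and 9081 and 10448 CPM in the other AE libraries. Of 14 tested targets of the liver X receptors, 3 were called higher and 4 lower in the embryonic step, 4 higher and 8 lower in ISC than in E14.5, and 10 higher and 1 lower in AE than in ISC. Abcg5 and Abcg8, whose products together export sterols, rose from 0.56 ± 0.31 to 48.1 ± 0.40 CPM and from 0.26 ± 0.19 to 60.8 ± 5.36 CPM from E14.5 to ISC (adjusted p = 4.62e-10 and 5.71e-10). Scd2, which encodes a fatty acid desaturase, fell from 2030 ± 87.4 to 48.2 ± 13.8 CPM in the same comparison (adjusted p = 1.46e-09).

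Among the steroid receptors, the mineralocorticoid receptor gene Nr3c2 changed more than the glucocorticoid receptor gene Nr3c1. Nr3c2 was at 4.04, 3.15 and 3.63 CPM in E12.5 and at 6.88, 7.53 and 7.25 CPM in E14.5. It was at 59.9, 61.5 and 56.4 CPM in ISC and at 134, 214 and 218 CPM in AE. Its groups formed 4 separate steps. Nr3c2 rose by 0.99 ± 0.18 (adjusted p = 0.000457), 3.04 ± 0.17 (adjusted p = 2.65e-09) and 1.67 ± 0.16 (adjusted p = 5.21e-07). Nr3c1 was at 86.4 ± 8.96 CPM (E12.5), 111 ± 4.63 CPM (E14.5), 263 ± 5.00 CPM (ISC) and 358 ± 24.0 CPM (AE), also without overlap between neighbours. It rose by 0.36 ± 0.10 (adjusted p = 0.00851), 1.25 ± 0.10 (adjusted p = 1.02e-07) and 0.44 ± 0.10 (adjusted p = 0.00119), and the first of these gave an adjusted p of 0.0503 without E12.5 replicate 3. Per kilobase of exon, Nr3c1 was at 11.2 and Nr3c2 at 0.56 CPM in E12.5, and at 46.6 and 29.1 CPM in AE. The estrogen receptor gene Esr1 was barely detected, with 67 counts over the 3 E12.5 libraries, 5 over E14.5, 14 over ISC and 8 over AE. Its libraries were at 1.09, 0.71 and 0.62 CPM in E12.5 and at 0.0748, 0.0390 and 0 CPM in E14.5, without overlap. It was called lower in E14.5 than in E12.5 (adjusted p = 3.09e-05), at 0.04 ± 0.04 against 0.81 ± 0.25 CPM. Its call as higher in AE than in E14.5 (adjusted p = 0.0401) was lost without AE replicate 1 (adjusted p = 0.0761).

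A list for the glucocorticoid and mineralocorticoid receptors held targets and other genes, such as Hsp90ab1 and Fkbp4, which encode chaperones of these receptors. Of its 17 tested genes, 2 were called higher and 6 lower in E14.5 than in E12.5, and 9 higher and 4 lower in ISC than in E14.5. In AE against ISC, 5 were called higher and 8 lower, where 32.6% of all genes were called higher and 35.2% lower. The list median in AE against ISC was −0.69, beside −0.05 for all genes. Both receptor genes rose in that comparison. Klf9, a transcription factor gene that also responds to thyroid hormone, rose from 1.58 ± 0.10 CPM in E14.5 to 34.8 ± 5.87 CPM in ISC (adjusted p = 1.21e-09). Dusp1, which encodes a kinase phosphatase and is also an immediate-early gene, rose from 24.2 ± 3.96 to 472 ± 116 CPM (adjusted p = 8.90e-08). Fkbp5, which encodes a chaperone partner of the glucocorticoid receptor, fell from 47.3 ± 17.4 CPM in ISC to 9.02 ± 5.15 CPM in AE (adjusted p = 1.95e-05).

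Nr1d1 and Nr1d2 encode REV-ERB alpha and beta, heme-binding repressors in the circadian clock. Nr1d1 was at 28.4, 23.3 and 22.3 CPM in E12.5 and at 26.3, 23.2 and 26.5 CPM in E14.5. It was at 299, 294 and 252 CPM in ISC and at 290.0, 483 and 505 CPM in AE. The 6 embryonic libraries overlapped and lay below all adult ones, and ISC overlapped AE through AE replicate 1. Nr1d1 changed by 0.03 ± 0.18 in the embryonic step (adjusted p = 0.892), rose by 3.48 ± 0.19 from E14.5 to ISC (adjusted p = 2.10e-09) and by 0.60 ± 0.17 from ISC to AE (adjusted p = 0.00757), the last not called under upper-quartile scaling (adjusted p = 0.0511). Nr1d2 was at 16.5 ± 0.99 CPM (E12.5), 13.5 ± 0.28 CPM (E14.5), 68.8 ± 3.52 CPM (ISC) and 85.9 ± 34.8 CPM (AE), with a rise of 2.35 ± 0.21 from E14.5 to ISC (adjusted p = 3.55e-07). Its difference between AE and ISC was not called (0.32, adjusted p = 0.18) but was called without AE replicate 1 (0.55, adjusted p = 0.0055). The time of day of collection is not given in the sources used here, and levels of these genes are known to follow it. Rora, an activator of the same clock loop, was under 2 CPM in every library. It was at 1.67 ± 0.16 CPM in ISC and 0.48 ± 0.30 CPM in AE, a change of −1.80 ± 0.45 (adjusted p = 0.0025).

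Of 18 tested clock genes, 5 were called higher and 2 lower in the embryonic step, 7 higher and 5 lower in ISC than in E14.5, and 10 higher and 2 lower in AE than in ISC. The products of Npas2 and Arntl can form an activating dimer of the clock, though not the only one. From E14.5 to ISC, Npas2 rose from 0.77 ± 0.08 to 60.4 ± 1.93 CPM (adjusted p = 8.40e-11). Arntl rose from 5.91 ± 0.37 to 39.0 ± 9.93 CPM (adjusted p = 9.08e-07). Hlf, a clock output factor gene, rose from 1.75 ± 0.77 CPM in ISC to 28.2 ± 12.04 CPM in AE (adjusted p = 6.31e-07).

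The estrogen-related receptors are orphans that act on genes of mitochondrial energy metabolism, and Esrra and Esrrg changed in opposite directions from ISC to AE. Esrrg was at 49.6, 37.4 and 38.0 CPM in E12.5 and at 100.02, 105 and 94.5 CPM in E14.5. It was at 194, 188 and 230.1 CPM in ISC and at 36.1, 22.2 and 36.2 CPM in AE. AE was the lowest group and ISC the highest, with no overlap between neighbours. Esrrg rose by 1.26 ± 0.17 in the embryonic step (adjusted p = 3.73e-05) and by 1.03 ± 0.17 from E14.5 to ISC (adjusted p = 0.00011), and changed by −2.69 ± 0.18 from ISC to AE (adjusted p = 1.78e-08). Esrra was at 4.22 ± 0.34 CPM (E12.5), 10.9 ± 0.17 CPM (E14.5), 14.03 ± 2.40 CPM (ISC) and 51.8 ± 5.83 CPM (AE). It rose by 1.37 ± 0.15 in the embryonic step (adjusted p = 5.41e-06) and by 1.89 ± 0.14 from ISC to AE (adjusted p = 5.40e-08), while its call between ISC and E14.5 (0.36 ± 0.14, adjusted p = 0.0397) was lost in 15 of 19 alternatives. Per kilobase of exon, Esrrg was at 32.9 and Esrra at 3.20 CPM in ISC, against 5.08 and 11.8 CPM in AE. Esrrb had at most 5 counts over any group.

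Of 18 tested targets of the estrogen-related receptors, 14 were called higher and 0 lower in E14.5 than in E12.5, 6 higher and 5 lower in ISC than in E14.5, and 17 higher and 1 lower in AE than in ISC. Cs, which encodes citrate synthase, rose from 541 ± 44.1 CPM in ISC to 1852 ± 270 CPM in AE (adjusted p = 3.05e-08). Slc25a4, which encodes an ADP/ATP carrier, fell from 260.2 ± 9.91 CPM in E14.5 to 17.0 ± 2.06 CPM in ISC (adjusted p = 7.97e-12). Ppargc1b and Ppargc1a encode coactivators of these receptors. Ppargc1b rose from 6.22 ± 0.66 to 34.5 ± 3.15 CPM in the embryonic step (adjusted p = 8.47e-08). Ppargc1a rose from 11.3 ± 1.25 CPM in E14.5 to 77.1 ± 3.89 CPM in ISC (adjusted p = 3.67e-08) and to 387 ± 126 CPM in AE (adjusted p = 1.42e-07).

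Of the NR2 orphans, Nr2f2 had the largest changes. It encodes COUP-TFII, known for its role in mesenchyme and vessels. It fell from 42.0 ± 3.59 CPM in E12.5 to 22.8 ± 1.36 CPM in E14.5 (−0.88 ± 0.14, adjusted p = 0.000124). It was at 20.9 ± 3.27 CPM in ISC, overlapping E14.5, and at 10.3 ± 1.43 CPM in AE, a change of −1.01 ± 0.15 (adjusted p = 2.77e-05). The part of mesenchymal cells in its level was not tested. Nr2c1 and Nr2c2 encode the testicular receptors TR2 and TR4. Nr2c1 lay between 27.4 and 43.4 CPM in all libraries, and its call in the embryonic step (−0.30 ± 0.11, adjusted p = 0.0379) was lost in 7 of 19 alternatives. Nr2c2 was at 98.4 ± 2.3 CPM (E14.5), 137 ± 7.34 CPM (ISC) and 107 ± 15.2 CPM (AE), with called changes of 0.48 ± 0.11 (adjusted p = 0.00132) and −0.37 ± 0.11 (adjusted p = 0.00727). Without AE replicate 1 it was also called lower in E14.5 than in E12.5 (−0.23, adjusted p = 0.0228), higher in ISC than in E12.5 (0.24, adjusted p = 0.0131) and higher in AE than in E14.5 (0.21, adjusted p = 0.0435). Nr2f6 lay between 14.02 and 21.8 CPM in all libraries. Of exon bases, 31.2% of Nr2c2 and 54.4% of Nr2f6 overlap genes on the opposite strand. Nr2f1 had at most 12 counts over any group and 0 in AE.

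Nr4a1 and Nr4a2 encode NUR77 and NURR1, orphans that are known immediate-early genes, induced quickly by many stimuli through the transcription factor CREB. Their promoters are shown because each of them, and no other of the 30 nuclear receptor genes matched, holds 4 copies of TGACG, the core of the CREB recognition sequence, in the 250 bases before the RefSeq start, counted on both strands. At least 4 copies occurred in 45 of 32851 windows (0.137%), a cut that equals the number in these promoters. At least 1 copy occurred in 17.8% of all windows and in 9 of the 49 windows of the 30 nuclear receptor genes matched. The first window is chr15:101266596-101266845 on the plus strand and the other chr2:57124004-57124253 on the minus strand of GRCm38.p6; capitals mark each copy, which reads CGTCA where it lies on the other strand.
Nr4a1: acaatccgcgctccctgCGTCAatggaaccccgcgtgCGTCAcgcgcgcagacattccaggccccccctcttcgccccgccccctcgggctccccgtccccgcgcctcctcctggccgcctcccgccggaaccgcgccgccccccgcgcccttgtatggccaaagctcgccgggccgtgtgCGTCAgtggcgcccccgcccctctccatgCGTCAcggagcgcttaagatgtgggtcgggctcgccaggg
Nr4a2: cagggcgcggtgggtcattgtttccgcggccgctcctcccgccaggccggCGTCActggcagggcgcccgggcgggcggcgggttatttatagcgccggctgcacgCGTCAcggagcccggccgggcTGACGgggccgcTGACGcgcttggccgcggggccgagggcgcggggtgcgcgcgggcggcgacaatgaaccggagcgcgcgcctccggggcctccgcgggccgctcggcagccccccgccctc
The full palindrome TGACGTCA was in 1.55% of all windows and in no window of these genes. These matches are descriptions of sequence and do not show binding.

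Nr4a1 and Nr4a2 had their highest levels in the stem cell libraries. Nr4a1 was at 19.7, 14.9 and 16.1 CPM in E12.5 and at 14.4, 12.9 and 15.1 CPM in E14.5. It was at 219, 103 and 69.8 CPM in ISC and at 17.8, 3.10 and 6.74 CPM in AE. All ISC libraries stood above all others, but they spread widely, as did those of AE. Nr4a1 rose by 3.21 ± 0.47 from E14.5 to ISC (adjusted p = 4.65e-05) and changed by −3.72 ± 0.50 from ISC to AE (adjusted p = 1.36e-05). Without ISC replicate 1 these were 2.61 and −3.14, and without AE replicate 1 the second was −4.78. Nr4a2 was at 12.9, 11.9 and 13.02 CPM in E12.5, 9.97, 10.4 and 8.09 CPM in E14.5, 96.8, 63.8 and 57.4 CPM in ISC and 31.6, 14.1 and 10.7 CPM in AE. In both genes the highest ISC library was replicate 1 and the highest AE library was replicate 1. Nr4a2 rose by 2.93 ± 0.32 from E14.5 to ISC (adjusted p = 2.28e-06) and changed by −1.90 ± 0.31 from ISC to AE (adjusted p = 8.02e-05), and by −2.54 without AE replicate 1. Against E14.5, Nr4a2 was called higher in AE (1.03 ± 0.31, adjusted p = 0.0077) but not without AE replicate 1 (adjusted p = 0.124), while Nr4a1 was not called (adjusted p = 0.331) but was called lower without that library (−1.58, adjusted p = 0.0081).

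Other immediate-early genes also had their highest summed level in ISC. The summed level of 20 such genes, to which these receptors do not belong, was 11891, 8637 and 7487 CPM in ISC replicates 1, 2 and 3, in the order of both receptor genes. It was 788 to 1269 CPM in E12.5, 1507 to 1721 CPM in E14.5, and 5784, 3195 and 4225 CPM in AE, the last in the order of Nr4a1 but not of Nr4a2. Of the 20, 18 were called higher and 0 lower in ISC than in E14.5, and 1 higher and 13 lower in AE than in ISC. In E14.5 against E12.5, 6 were called higher and 1 lower, where neither receptor gene was called and both had lower means. In AE against E14.5, 14 were called higher and 3 lower, where Nr4a1 was not called and had a lower mean. Fos stood at 60.7 ± 4.52 CPM (E14.5), 1093 ± 250.1 CPM (ISC) and 624 ± 222 CPM (AE). Per the labels' protocols the tissues were taken apart with different steps, including collagenase for embryonic gut and collagenase with DNase for crypts. The part of cell isolation in the levels of these receptor genes was not tested.

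**Figure D3:**
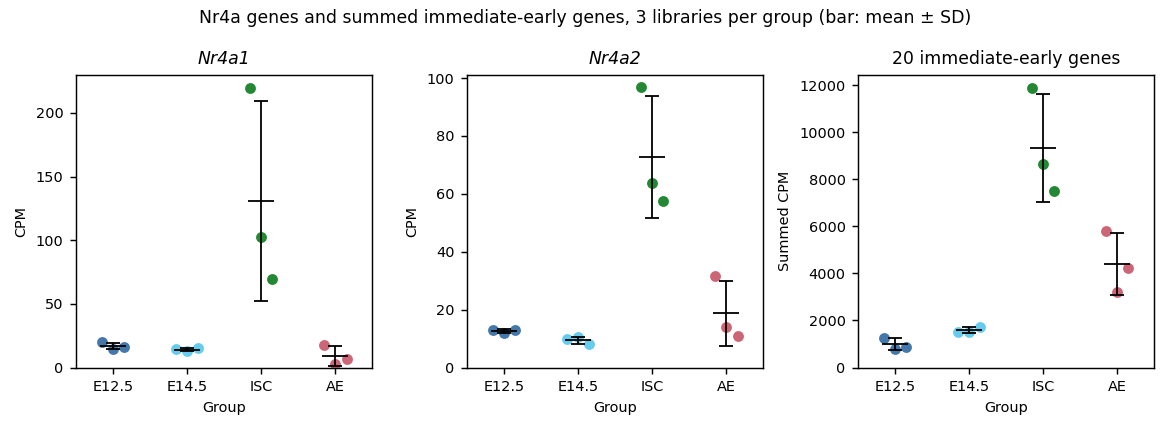
Levels of Nr4a1 and Nr4a2 in CPM and the summed CPM of 20 immediate-early genes, on linear axes starting at 0, for the 3 libraries of each group with the mean ± SD. The ISC libraries are highest in all 3 panels, and ISC replicate 1, at 219, 96.8 and 11891 CPM, is the highest library in each.

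Nr5a2 and Nr6a1 had their highest means in E12.5. Nr5a2 encodes LRH-1, known for its part in crypt cell renewal and local steroid synthesis. It was at 184 ± 17.6 CPM (E12.5), 135 ± 1.18 CPM (E14.5), 156 ± 3.42 CPM (ISC) and 102 ± 20.5 CPM (AE), falling by 0.44 ± 0.13 in the embryonic step (adjusted p = 0.00956) and by 0.62 ± 0.13 from ISC to AE (adjusted p = 0.0006). Without AE replicate 1 its differences of ISC from E14.5 (0.21, adjusted p = 0.04) and from E12.5 (−0.23, adjusted p = 0.0204) were called as well. Per kilobase of exon it was the highest of the 32 genes in E12.5, at 31.2 CPM. Nr6a1 encodes germ cell nuclear factor, an embryonic repressor of pluripotency genes. It was at 59.0 ± 5.69 CPM (E12.5), 29.9 ± 1.496 CPM (E14.5), 54.3 ± 2.99 CPM (ISC) and 49.1 ± 8.79 CPM (AE). It fell by 0.98 ± 0.13 in the embryonic step (adjusted p = 3.24e-05) and was 0.86 ± 0.13 higher in ISC than in E14.5 (adjusted p = 5.39e-05).

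**Figure D4:**
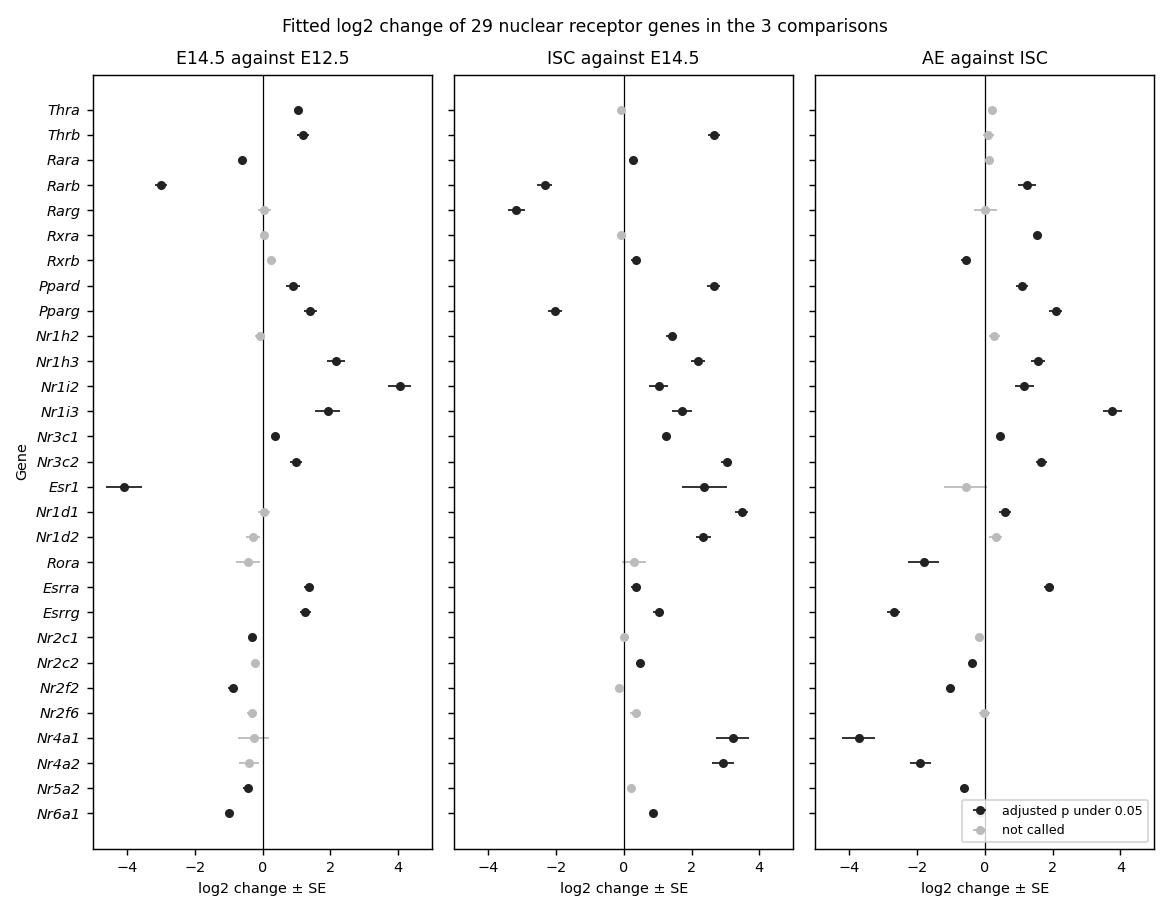
Log2 change ± SE of the 29 tested nuclear receptor genes in E14.5 against E12.5, ISC against E14.5 and AE against ISC, with black points for an adjusted p under 0.05 and grey points for the rest. Of the black points 11, 19 and 11 lie above 0 and 7, 3 and 8 below it.

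The remaining comparisons do not cross the split in listed reads. In ISC against E12.5, 23 of 29 genes were called, 16 higher and 7 lower, where 68.5% of all genes were called, 33.9% higher and 34.6% lower. A called change of at least 1 was found for 18 (41.1% of all genes), and 25 had no overlap (73.9%). The largest changes were those of Rarb (−5.33), Nr1i2 (5.07 ± 0.34, adjusted p = 8.78e-09) and Nr1h3 (4.35 ± 0.26, adjusted p = 2.62e-09). Without E12.5 replicate 1 that of Nr1i2 was 5.78 and that of Rarb −5.34. In AE against E14.5, 22 were called, 16 higher and 6 lower, where 78.2% of all genes were called, 36.7% higher and 41.5% lower. A called change of at least 1 was found for 19 (53.2% of all genes), and 23 had no overlap (81.5%). The largest were those of Nr1i3 (5.49), Nr3c2 (4.70 ± 0.18, adjusted p = 3.63e-11) and Nr1d1 (4.07 ± 0.20, adjusted p = 2.81e-10). These comparisons share libraries with the others and are no independent support for them.

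On a per-length scale Nr1d1 led in both adult groups and in neither embryonic group. In CPM per kilobase of merged exon, E12.5 was led by Nr5a2 (31.2), Rara (21.3) and Rxra (16.7), and E14.5 by Thra (23.3), Nr5a2 (22.9) and Rxra (17.4). ISC was led by Nr1d1 (91.5), Nr4a1 (37.2) and Nr3c1 (34.3), and AE by Nr1d1 (138.5), Nr1i2 (59.2) and Rxra (47.6). The place of Nr4a1 rested on ISC replicate 1, without which, in an alternative chosen after seeing the data, it was at 24.6, below Nr3c1 (34.6), Esrrg (33.6), Nr5a2 (26.2) and Nr1i2 (25.9). Exon lengths come from GENCODE vM21 and not from the annotation used for counting, and they include bases that overlap other genes.

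Genes of retinoid response and metabolism, 14 of which were tested, were called 3 higher and 4 lower in E14.5 than in E12.5, 4 higher and 6 lower in ISC than in E14.5, and 7 higher and 1 lower in AE than in ISC. Cyp26b1, which encodes an enzyme that degrades retinoic acid, fell with Rarb in the embryonic step, from 41.0 ± 3.80 to 1.44 ± 0.16 CPM (adjusted p = 2.05e-09). Aldh1a2, which encodes an enzyme that makes retinoic acid, fell from 6.56 ± 0.59 CPM in E14.5 to 0.14 ± 0.21 CPM in ISC (adjusted p = 1.34e-06). Rbp2, the cellular retinol-binding protein of enterocytes, rose from 24.6 ± 11.7 CPM in ISC to 2111 ± 598 CPM in AE (adjusted p = 4.16e-09), and Aldh1a1, another enzyme that makes retinoic acid, from 23.0 ± 14.04 to 1361 ± 535 CPM (adjusted p = 1.06e-07).

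Coregulators are the proteins through which the receptors act on transcription. Of 15 coactivator genes, 3 were called higher and 7 lower in E14.5 than in E12.5, 8 higher and 4 lower in ISC than in E14.5, and 3 higher and 7 lower in AE than in ISC. Of 13 tested corepressor genes the counts were 1 higher and 6 lower, 5 higher and 3 lower, and 1 higher and 7 lower. Of all genes tested, 49.2%, 60.7% and 67.8% were called in these comparisons, both directions together. Ncor1, which encodes a main corepressor, rose from 395 ± 15.1 CPM in E14.5 to 971 ± 81.5 CPM in ISC (adjusted p = 2.28e-06).

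Of 16 nuclear receptor genes outside the set, 10 were tested, and they were called 7 higher and 2 lower, 6 higher and 2 lower, and 5 higher and 3 lower in the 3 steps. Hnf4a, an intestinal master regulator, was at 301 ± 32.1 CPM (E12.5), 1027 ± 23.0 CPM (E14.5), 1689 ± 172 CPM (ISC) and 2157 ± 193 CPM (AE). Vdr, the vitamin D receptor gene, was at 4.32 ± 0.53 CPM in E14.5 and 1394 ± 85.8 CPM in ISC (adjusted p = 1.39e-12). The highest level of any of the 32 genes was 505 CPM, for Nr1d1 in AE replicate 3.

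**Figure D5:**
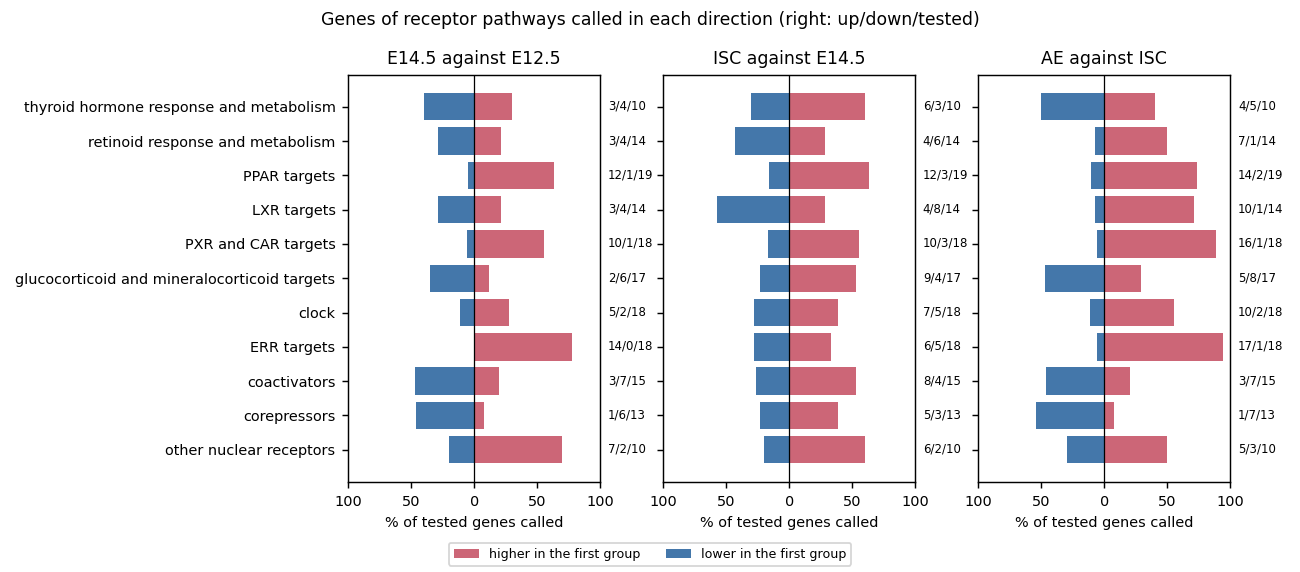
Share of tested genes, in percent, called higher (to the right of 0) or lower (to the left) in the first group named in each of 3 comparisons, for 11 lists of receptor targets, coregulators and other receptors, with the numbers called higher, lower and tested beside each bar. Targets of the pregnane X and constitutive androstane receptors (16 of 18) and of the estrogen-related receptors (17 of 18) have the most genes called higher in AE than in ISC. The list labelled glucocorticoid and mineralocorticoid targets also holds genes of receptor chaperones.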

How the data were processed

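The authors deposited whole-number read counts per gene symbol, 1 table for each of 12 libraries. STAR 2.3.1z13, HTSeq 0.6.1p1, DESeq2 1.6.3, bcl2fastq 1.8.4, SAMtools 1.2 and mm9 appear in the submitters' processing notes without roles. Annotation and strand setting: not given in the sources used here. RNA input was 50 ng, amplified with an Ovation kit, per the labels' protocols. The 5 rows that name no gene stayed out of library sizes and tests; they held 33.4% to 58.1% of reads as outside genes, 0.531% to 1.00% as ambiguous and, in E12.5 and ISC, 3.06% to 5.96% as aligned to several places.

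Quasi-likelihood F tests of edgeR 4.0.16 (R 4.3.3) were run on all 12 libraries with 1 coefficient per group, TMM scaling (factors 0.696 to 1.16) and the edgeR expression filter. The test was checked on simulated counts. Alternatives used limma 3.58.1, DESeq2 1.42.0, other scalings, no filter, the 6 libraries of a comparison alone, a replicate block, and leaving out each library in turn. All replicate pairs differed by more than sampling noise, as chi-square over degrees of freedom was 3.38 to 138. P-values measure the spread between these libraries, and a level of 0 is bounded by 3 counts over the group, which covers counting error only.

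The members and gene lists were chosen with earlier results of these data known, so list counts are descriptions and no list was tested as a set. Of 363 list entries 358 matched a gene symbol. Values of every library are given for members called without overlap and with 1 of the 5 largest changes in a step among genes whose higher mean reached 1 CPM (and, in part, for Thrb, Ppard, Rxra and Esr1, added after their values were seen), and up to 3 called genes of at least 5 CPM were taken from each other list. Exon overlaps and lengths are from GENCODE vM21 (GRCm38) and promoters from RefSeq (GRCm38.p6, 30 of 32 genes matched), later builds than the mm9 named in the notes.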

Additional observations from a re-analysis of the deposited data

How the results depend on the processing

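The tested changes of single receptor genes were recomputed under up to 19 alternatives, giving 2752 values. Of these, 2640 kept their side of the threshold, 72 lost a call, 40 gained one and 0 reversed a called change. Changes that were not called took the opposite sign in 40 values. A call was lost in at least 1 alternative for 13 changes and gained for 20, and 112 changed side in none. The number of genes of the set called ranged from 17 to 23 in E14.5 against E12.5, 19 to 23 in ISC against E14.5, 18 to 21 in AE against ISC, 20 to 25 in ISC against E12.5 and 21 to 23 in AE against E14.5, leaving out each library included. Upper-quartile scaling shifted the median change of all genes by −0.20 in AE against ISC and −0.24 in AE against E14.5, and ended the call of Rara in AE against E14.5 (adjusted p = 0.257). With the 6 libraries of the comparison alone, Nr2c2 in AE against ISC was not called (adjusted p = 0.0726), and the call of Esr1 in AE against E14.5, which rests on 8 and 5 counts, was lost in 9 of 18 alternatives.

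Replicate numbers did not pair the libraries: the correlation of same-numbered libraries' deviations was −0.066 to 0.080, and every library matched its own number best in ISC against E12.5 alone. With a replicate block the count of called genes was 18 in E14.5 against E12.5, 21 in ISC against E14.5, 19 in AE against ISC, 23 in ISC against E12.5 and 22 in AE against E14.5. Depth limits Rxrg, Esrrb and Nr2f1, which were not tested, and Esr1 outside E12.5, although its call in E14.5 against E12.5 held in 19 of 19 alternatives.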
